A study of Mus musculus with 36 samples.

Results

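DNase I cuts chromatin preferentially where nucleosomes are displaced, so stretches that yield many cut fragments (DNase I hypersensitive sites, DHSs) mark active promoters, enhancers and insulators. In liver these elements are held open by transcription factors such as C/EBP, FOXA and HNF4A, and a sequence variant in a binding site can open or close an element on the chromosome that carries it. B6C3F1 mice are first-generation hybrids of a C57BL/6 mother and a C3H/He father. Each autosomal DHS of such a mouse therefore sums a C57BL/6 and a C3H allele, and a DHS that is open on the C57BL/6 allele alone would give about 0.5 of the C57BL/6 level. The X chromosome of a male B6C3F1 mouse comes from its C57BL/6 mother.

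The regions described here are 2722 of 98170 DHSs in the consensus set, and all of them are autosomal. They were chosen by their measured values: the normalized read count of every one of 9 B6C3F1 mice lay below that of every one of 9 C57BL/6 mice, and the ratio of the strain means was at most 0.65. They are called weaker DHSs below. All values that compare the strains at these sites are therefore descriptions of the selection and carry no test. DNase-seq and RNA-seq were performed on the livers of the same male mice. C57BL/6 mice, 9 to 11 weeks old at the start, and B6C3F1 mice, 4 to 5 weeks old, received drinking water with 0.05% (wt/vol) phenobarbital (PB) or drinking water alone (vehicle) for 91 days, with 4 vehicle-treated and 5 PB-treated mice per strain. Values of single mice are given in the order of their animal numbers. PB is an antiepileptic drug that activates the nuclear receptor CAR in hepatocytes and promotes liver tumors. The strains came from 2 separate studies with archived tissue, different animal suppliers and different ages, so the strain cannot be told apart from these. In whole liver, a lower signal can come from fewer cells of a type or from less signal per cell, and the data do not separate these. Transcripts of the 7 hepatocyte markers (Alb, Ttr, Apoa2, Tat, Pck1, Cps1 and Serpina1c) summed to 67557–91657 CPM (reads scaled to library size) in B6C3F1 and 68148–87525 in C57BL/6, and no gene of this list passed the RNA cutoffs given below between the strains.

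The weaker DHSs made up 2.83% of 96287 autosomal DHSs. On chromosome X, where no C3H allele is present, 30 of 1855 DHSs (1.62%) met the same conditions. All but 1 of the X sites that met them had a mean count under 200 in C57BL/6. Among DHSs with a mean count of at least 200 in C57BL/6, 1 of 464 on X (0.216%) was weaker, against 952 of 32288 on autosomes (2.95%). At lower counts the shares on X were nearer to those on autosomes. They were 1.28% on X and 1.38% on autosomes below a mean count of 50. From 50 to 100 they were 2.03% and 2.80%, and from 100 to 200 they were 3.41% and 4.05%. In the opposite direction, 2287 autosomal DHSs (2.38%) had every B6C3F1 mouse above every C57BL/6 mouse and a ratio of at least 1.54, the inverse of the limit. These are called stronger DHSs. DNase depth moved with strain: the reads within DHSs numbered from 7011739 to 25662481 per mouse in B6C3F1 and from 19424758 to 58079490 in C57BL/6, and the part of depth in the selection was not tested beyond the alternatives in the closing section.

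Strain ratios did not gather in a narrow peak at 0.5. The median ratio was 0.482, with quartiles of 0.393 and 0.560 and a range from 0.0283 to 0.65. The numbers of sites in successive bins of 0.05 from 0.35 upward were 276, 393, 402, 433, 445 and 331. Ratios from 0.45 to 0.55 made up 30.7% of the weaker DHSs (835), ratios under 0.45 made up 40.8% (1111) and ratios of 0.55 or more made up 28.5% (776). The limit itself cut the distribution on its right: among all 3271 autosomal DHSs whose mice did not overlap in this direction, the next bins above 0.65 held 224, 179 and 98 sites. The no-overlap condition removes more sites as the ratio nears 1, so it shaped these counts too. Over all autosomal DHSs, the same bins from 0.35 to 0.65 held 496, 781, 1107, 1578, 2244 and 2868 sites, a steady rise past 0.5. At the limit, the DHSs just inside lay at the promoter of B430010I23Rik (152 ± 17 in B6C3F1, 234 ± 20.4 in C57BL/6) and near Tpm1, and those just outside lay near Syt12 and Nova1, with ratios of 0.65 at the first 3 and 0.651 at Nova1.

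**Figure D1:**
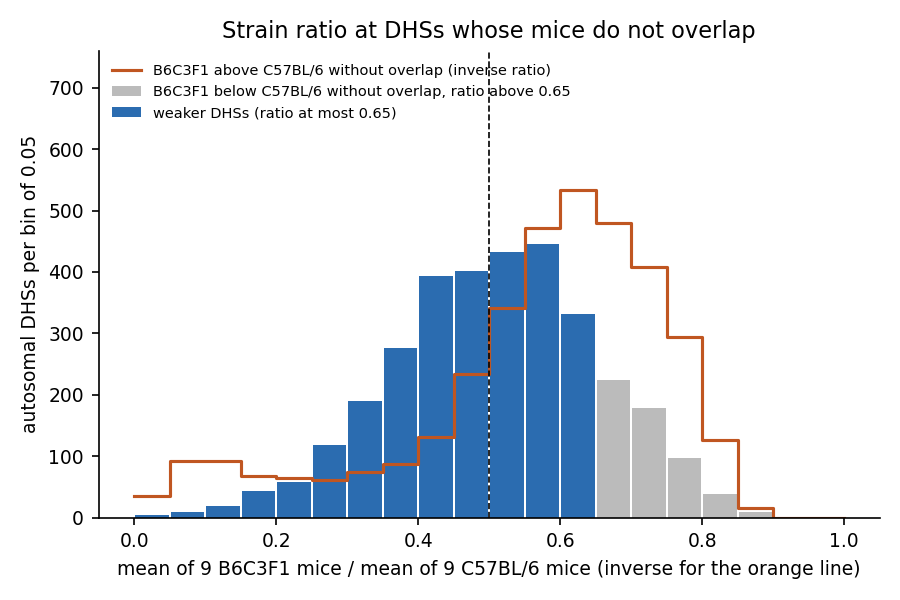
Number of autosomal DHSs per bin of 0.05 of the strain ratio (mean of 9 B6C3F1 mice over mean of 9 C57BL/6 mice). Blue bars are the 2722 weaker DHSs, gray bars are DHSs whose mice do not overlap but whose ratio exceeds 0.65, and the orange line gives the inverse ratio of DHSs with every B6C3F1 mouse above every C57BL/6 mouse. The blue bars form a broad hump across the dashed line at 0.5, and the orange line has a second, low hump below 0.2. The no-overlap condition and the limit both shape the blue hump.

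The error of a single site is given as a description, since the same values chose the sites. The limma estimate of the strain difference had a median standard error of 0.147 on the log2 scale, while the SD of the log2 ratio across weaker DHSs was 0.472. The 95% interval of the strain difference covered a ratio of 0.5 at 1628 sites (59.8%), lay wholly below it at 711 (26.1%) and wholly above it at 383 (14.1%). At the 349 sites with a mean count of at least 400 in C57BL/6, where intervals were narrowest, 41.5% covered 0.5, 19.8% lay below and 38.7% above. Among the selected sites the median ratio differed with the level, which the rule also used, so the values describe the selection and not a property of the sites. The median was 0.375 at C57BL/6 counts under 50, 0.447 from 50 to 100, 0.495 from 100 to 200, 0.512 from 200 to 400 and 0.55 at 400 or more.

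Stronger DHSs were distributed differently. The inverse of their ratio had a median of 0.532 and an SD of 1.01 on the log2 scale, and 353 of 2287 had an inverse ratio under 0.25, against 134 of 2722 weaker DHSs with a ratio under 0.25. B6C3F1 carries a C57BL/6 allele at every autosomal site, and C57BL/6 carries no C3H allele. The part of the alleles in this contrast was not tested.

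The lowest ratios belonged to sites at the floor of the table. The deposited table holds no 0, and its lowest value in each mouse corresponds to 1 read. At 3 weaker DHSs all 9 B6C3F1 mice were at this floor: chr4:123863282-123863452 near 4933427I04Rik, chr13:68299378-68299524 near Gm8016 and chr1:171063978-171064101 near Mir6546. Against a floor of 3 reads per mouse, these were at least 10.0-fold, 9.4-fold and 7.17-fold lower in B6C3F1. At the site of the lowest ratio (0.0283), chr4:112941874-112942161 in an intron with Skint10 as the nearest gene, vehicle-treated B6C3F1 mice had 5.28, 1.76, 3.69 and 4.06 normalized counts and PB-treated B6C3F1 mice had 1.47, 4.10, 1.59, 1.99 and 1.77. The C57BL/6 mice had 119.6, 94.7, 79.0 and 95.4 with vehicle and 79.4, 140.3, 72.9, 105 and 123 with PB. The ratio of this site was 0.0501 after quantile normalization, and the order of the lowest ratios changed with the scaling. All B6C3F1 values there stood for 1 to 5 reads, far below 0.5 of the C57BL/6 level, and 6 consecutive DHSs over 68.7 kb of this Skint region of chromosome 4 were weaker, with ratios from 0.0283 to 0.489. Repeat-masked sequence covered over 50% of the length of 8.71% of weaker DHSs, against 4.56% of all autosomal DHSs.

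The strongest sites lay close to 0.5 or above it. The highest C57BL/6 level was at chr9:58092109-58093333, an intronic DHS 9.50 kb from a TSS of Ccdc33, with 2294 ± 249 (SD, n = 4) counts in vehicle-treated and 2117 ± 272 (n = 5) in PB-treated C57BL/6 mice, against 1182 ± 86.8 and 1151 ± 217 in B6C3F1 (ratio 0.531). An intronic DHS 6.80 kb from a TSS of Ank2, which encodes the membrane adaptor ankyrin-2, had 1502 ± 153 (n = 9) counts in C57BL/6 and 699 ± 53.2 (n = 9) in B6C3F1 (ratio 0.466). The C57BL/6 mice ranged from 1313 to 1746 and the B6C3F1 mice from 641 to 778. Other sites of high count had ratios of 0.544 near Acot11, an acyl-CoA thioesterase gene, 0.570 at the shared promoter region of Miip and the retroviral restriction gene Fv1, and 0.621 near Gm32468.

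The reference sequences of a few weaker DHSs are printed here because the later results turn on them: 3 promoter sites of genes described below, the 5 sites that changed with PB, 1 of the strongest sites, and the site of lowest ratio. They are the central bases of each DHS outside annotated exons, from the plus strand of RefSeq's GRCm38.p6 assembly (mm10), which is the C57BL/6J genome. The C3H sequence was not analysed here. Capitals mark matches to the motifs searched below.
Akr1e1 promoter, chr13:4609165-4609322: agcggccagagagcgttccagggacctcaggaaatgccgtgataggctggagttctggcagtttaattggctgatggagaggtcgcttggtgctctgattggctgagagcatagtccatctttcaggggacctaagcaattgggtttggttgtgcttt
Nat8f5 promoter, chr6:85821682-85821881: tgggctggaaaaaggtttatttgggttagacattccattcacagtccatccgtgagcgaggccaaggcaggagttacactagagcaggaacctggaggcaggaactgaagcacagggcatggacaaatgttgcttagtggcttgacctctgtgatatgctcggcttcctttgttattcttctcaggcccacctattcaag
Gsta1 promoter, chr9:78229914-78230113: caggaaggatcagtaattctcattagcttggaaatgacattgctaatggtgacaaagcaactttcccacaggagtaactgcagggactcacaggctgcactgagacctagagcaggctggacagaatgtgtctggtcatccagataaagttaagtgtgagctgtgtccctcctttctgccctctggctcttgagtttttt
Tgm3 upstream, chr2:129961652-129961851: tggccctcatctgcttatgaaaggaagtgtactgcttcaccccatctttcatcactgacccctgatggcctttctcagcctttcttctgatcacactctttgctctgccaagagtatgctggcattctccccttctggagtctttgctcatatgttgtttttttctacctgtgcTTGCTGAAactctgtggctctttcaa
Olfr27 upstream, chr9:39116077-39116276: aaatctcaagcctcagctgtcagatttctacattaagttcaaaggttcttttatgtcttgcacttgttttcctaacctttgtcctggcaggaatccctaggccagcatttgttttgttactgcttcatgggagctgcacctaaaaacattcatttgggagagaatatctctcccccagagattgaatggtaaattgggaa
Pdzph1 distal, chr17:58690294-58690493: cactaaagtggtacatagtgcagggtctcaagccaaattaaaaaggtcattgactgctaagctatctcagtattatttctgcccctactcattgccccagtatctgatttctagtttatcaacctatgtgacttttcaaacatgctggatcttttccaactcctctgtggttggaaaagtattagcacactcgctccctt
Dcdc2c intron, chr12:28509771-28509970: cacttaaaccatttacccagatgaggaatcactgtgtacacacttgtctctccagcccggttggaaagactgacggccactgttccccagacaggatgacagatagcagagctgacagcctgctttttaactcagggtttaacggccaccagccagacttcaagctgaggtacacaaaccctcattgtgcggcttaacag
Tmem74 distal, chr15:43701463-43701662: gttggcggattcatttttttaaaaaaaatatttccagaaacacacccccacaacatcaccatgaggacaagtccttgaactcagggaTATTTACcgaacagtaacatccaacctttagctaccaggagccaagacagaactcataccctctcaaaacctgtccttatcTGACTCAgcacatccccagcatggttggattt
Ank2 intron, chr3:127005155-127005354: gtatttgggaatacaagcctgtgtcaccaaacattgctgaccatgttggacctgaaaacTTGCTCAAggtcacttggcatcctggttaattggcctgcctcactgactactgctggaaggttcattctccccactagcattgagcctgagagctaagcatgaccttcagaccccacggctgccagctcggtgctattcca
Skint10 region, chr4:112941918-112942117: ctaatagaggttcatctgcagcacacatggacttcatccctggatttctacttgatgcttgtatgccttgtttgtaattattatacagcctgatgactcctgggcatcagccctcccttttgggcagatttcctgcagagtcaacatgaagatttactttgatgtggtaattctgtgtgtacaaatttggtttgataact

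Weaker DHSs were mostly distal. Of 2722, 94 (3.45%) overlapped a promoter (the 1000 bp upstream of a RefSeq TSS), against 14.0% of all autosomal DHSs and 12.6% of stronger DHSs. Another 43.4% were intronic and 46.8% intergenic, against 42.0% and 37.5% of all autosomal DHSs, and the median distance to a TSS was 28.4 kb against 16.8 kb. Their width (median 325 bp against 316 bp) was close to that of all sites. The median C57BL/6 count, a level the rule used, was 141 in weaker, 114 in all autosomal and 75.7 in stronger DHSs. The central 200 bp had a median GC content of 46.0%, against 48.5% in all autosomal DHSs and 50.0% in stronger DHSs.

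The share of weaker DHSs fell with GC content. It was 3.79% at a GC content up to 40%, 3.20% from 45 to 50% and 0.546% above 60%. The strain ratio of all DHSs moved with GC content too: its median went from 0.946 in the lowest class to 1.11 above 60% on autosomes, and from 0.945 to 1.09 on chromosome X. Base composition thus went with the strain difference also where both strains carry a C57BL/6 chromosome, and its part in the selection was measured only by the GC-centred alternative of the closing section, under which 2405 of the 2722 weaker DHSs (88.4%) met the rule.

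Matches to the C/EBP, FOXA, HNF4A and DR1 patterns were more frequent in weaker DHSs than in all DHSs, whereas those to the other patterns, HNF1 of the liver factors and CTCF among them, were less frequent. No test was run on these shares. Motifs were searched on both strands of the central 200 bp of the reference sequence. The C/EBP pattern TTGCNNAA was found in 21.7% of weaker DHSs, 14.5% of all autosomal DHSs and 10.3% of stronger DHSs. The FOXA patterns TGTTTAC and TATTTAC were found in 11.8%, 9.14% and 6.12%. The HNF4A pattern CAAAGTCCA was found in 2.35%, 1.58% and 0.875%, and the nuclear receptor DR1 pattern CAAAGGTCA in 2.50%, 1.58% and 0.743%. The core AGNNGGCGC of CTCF, the insulator protein, was found in 1.14% of weaker DHSs (31 sites), 4.56% of all and 14.3% of stronger DHSs. The GC-rich SP/KLF pattern GGGCGG was found in 4.85%, 11.9% and 13.2%. The remaining shares in weaker and all DHSs were HNF1 (GTTAATNAT) 1.29% against 1.53%, STAT (TTCNNNGAA) 6.28% against 7.42%, AP-1 (TGANTCA) 6.69% against 7.62%, ETS (CCGGAAG) 1.69% against 3.06%, NRF1 (GCGCATGCG) 0.0735% against 0.416% and a run of 10 CA dinucleotides 1.43% against 1.54%. Outside promoters the C/EBP share was 21.9% against 15.8% of all and the CTCF share 1.03% against 3.82%, whereas the SP/KLF share (4.19% against 5.79%) came closer to that of all sites.

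The same motifs went with the strain ratio on chromosome X. Autosomal DHSs with the CTCF core had a median ratio of 1.32, against 0.974 without it, and those on X 1.2 (66 sites) against 0.967. DHSs with the C/EBP pattern had a median ratio of 0.925 on autosomes, against 0.997 without it, and 0.913 on X (302 sites) against 0.987. Of the 30 X sites that met the conditions, 10 held the C/EBP pattern and 0 the CTCF core. Among the printed sequences, the Ank2 and Tgm3 sites hold a C/EBP match, and the Tmem74 site holds a FOXA and an AP-1 match. The central 200 bp of the Akr1e1 site hold a C/EBP match too, outside the printed stretch.

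**Figure D2:**
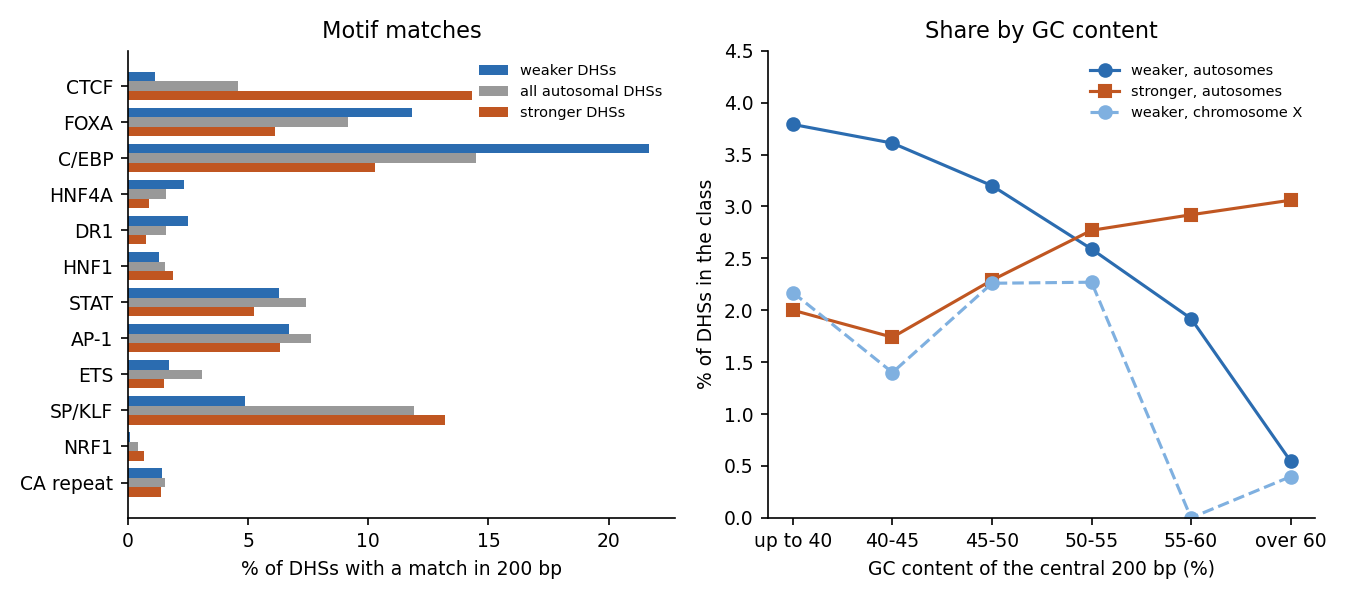
Left, percentage of DHSs with a motif match in the central 200 bp for 2722 weaker, 96287 autosomal and 2287 stronger DHSs. Right, percentage of DHSs that were weaker on autosomes, stronger on autosomes or weaker on chromosome X by GC content of the central 200 bp. C/EBP bars are longest in the weaker DHSs and CTCF bars in the stronger DHSs, and the share of weaker DHSs drops to 0.546% above 60% GC.

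Weaker DHSs lay next to each other more often than the average DHS. When a weaker DHS had its next DHS within 1 kb, that neighbor was weaker in 82 of 324 cases (25.3%), against 2.46% of all neighbors at that distance. Within 100 kb the shares were 13.5% and 2.68%. Runs of 2 or more consecutive weaker DHSs numbered 288 and held 645 sites (23.7%). The longest was a run of 7 over 28.4 kb at Dym, which encodes a Golgi protein, with ratios from 0.347 to 0.587. Runs of 5 lay over 10.7 kb at Wdfy1 on chromosome 1 (ratios 0.433 to 0.553), over 15.6 kb between Bmp7 and Spo11 on chromosome 2 (0.281 to 0.395) and over 268 kb near Hnrnpa1l2-ps2 on chromosome 15. By chromosome the share of weaker DHSs ranged from 1.99% on chromosome 10 to 4.08% on chromosome 12. Of 1005 windows of 2 Mb with at least 20 DHSs, 198 (19.7%) held no weaker DHS and 71 held neither a weaker nor a stronger one, such as chr17:80000001-82000000 with 114 DHSs. The highest shares were 5 of 20 DHSs in chr6:110000001-112000000 and 7 of 34 in chr4:146000001-148000000.

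RNA of the same livers was not used to choose the sites and could be tested. Of 102 genes with a weaker DHS in the promoter, 67 passed the expression filter (0.4 CPM or more in 3 or more mice of any group). RNA was lower in B6C3F1 for 29 of them (43.3%) and higher for 1 (limma on log2(CPM + 0.1) over all genes, strain difference averaged over vehicle and PB, |log2 FC| ≥ 0.58 and Benjamini–Hochberg FDR ≤ 0.01). Among all 13838 genes tested, 3.55% were lower and 2.57% higher, and among 11006 genes with any autosomal DHS in the promoter, 2.72% were lower and 2.03% higher. The log2 FC was negative for 54 of the 67 genes, with a median of -0.37 against -0.007 for all genes, and 37 genes did not pass the cutoffs. At 17 of the 29 lower genes, all 9 B6C3F1 samples lay below all 9 C57BL/6 samples. The same samples made these calls, so this count describes the called genes and carries no further test. The share among all genes is not given here. The RNA ratios of the 29 ranged from 0.189 to 0.671 with a median of 0.501: 12 were under 0.45, 8 from 0.45 to 0.55 and 9 at 0.55 or more. The upper end of that range is set by the cutoff.

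Nnmt, which encodes the enzyme that methylates nicotinamide, had the smallest FDR of the genes named here. The promoter DHS of Nnmt, chr9:48604992-48605411, had 597, 433, 441 and 361 counts in vehicle-treated and 359, 599.8, 372, 365 and 469 in PB-treated C57BL/6 mice, and 178, 179, 169.8 and 237 in vehicle-treated and 225, 183, 192, 235 and 119 in PB-treated B6C3F1 mice (ratio 0.430). Its RNA was 83.6, 79.9, 82.1 and 89.8 CPM with vehicle and 67.0, 68.1, 63.3, 77.3 and 78.5 CPM with PB in C57BL/6, and 38.0, 40.1, 29.5 and 33.3 CPM with vehicle and 26.3, 25.0, 26.7, 33.1 and 28.3 CPM with PB in B6C3F1. The strains did not overlap in RNA, and the log2 FC was -1.30 ± 0.06 (SE, limma, FDR = 2.49e-12). For Akr1e1, an aldo-keto reductase gene, the promoter DHS chr13:4608983-4609461 had 605 ± 26.7 counts in C57BL/6 and 286 ± 68.9 in B6C3F1 (SD, n = 9 each, ratio 0.472). Akr1e1 RNA was 44.0 ± 3.74 CPM in C57BL/6 and 18.2 ± 5.65 CPM in B6C3F1 (log2 FC -1.35 ± 0.19, limma FDR = 5.44e-05). The B6C3F1 samples spread from 8.17 to 24.6 CPM and the C57BL/6 samples from 35.8 to 48.7 CPM, so the groups did not overlap although B6C3F1 varied more. Nat8f5, a member of the Nat8 acetyltransferase family, had a promoter DHS at a ratio of 0.353 and RNA of 27.6 ± 7.29 CPM in C57BL/6 and 9.14 ± 2.07 CPM in B6C3F1 (log2 FC -1.55 ± 0.16, limma FDR = 1.96e-06).

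Trim30d, a TRIM family gene, had a promoter DHS with 209 ± 23.0 counts in C57BL/6 and 37.7 ± 8.64 in B6C3F1 (ratio 0.180), and its RNA was lower by a smaller factor, from 9.33 ± 1.93 CPM to 4.07 ± 0.556 CPM (log2 FC -1.15 ± 0.09, limma FDR = 3.39e-09). Nlrp12, an inflammasome-related receptor gene, had 18 ± 2.73 CPM in C57BL/6 and 7.12 ± 1.48 CPM in B6C3F1 with a DHS ratio of 0.597. Zc3h12d, which encodes an RNase of the Regnase family, had 6.47 ± 0.833 CPM and 2.43 ± 0.667 CPM with a DHS ratio of 0.483. Lgals1, the galectin-1 gene, had 37.3 ± 14.9 CPM and 14.4 ± 4.03 CPM with a DHS ratio of 0.619, its strains overlapped, and the call was lost in vehicle-treated mice alone (log2 FC -0.77). Among markers of immune cells, the 7 Kupffer cell and macrophage markers summed to 109.5–148 CPM in B6C3F1 and 137–241 CPM in C57BL/6. These sums overlapped, and 1 of the 7, Adgre1, was lower in B6C3F1 past the cutoffs and 0 were higher. Of 7 lymphocyte markers, 6 are not in the table analysed and Ms4a1 ranged from 0 to 0.432 CPM in B6C3F1 and from 0.359 to 1.05 CPM in C57BL/6. The part of these cells in the lower RNA was not tested. The endothelial, stellate and cholangiocyte lists (7, 7 and 6 genes in the table) had 0 genes past the cutoffs and overlapping sums in the strains (415–479 against 434–520.4, 364–599.5 against 377–565 and 100.4–132 against 94.0–113 CPM).

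The lncRNAs 1700030C10Rik (log2 FC -2.10 ± 0.26, 0.201 ± 0.154 CPM in B6C3F1 and 1.06 ± 0.136 CPM in C57BL/6) and Lncbate1 (log2 FC -2.02 ± 0.28) had the largest decreases, with DHS ratios of 0.202 and 0.344. 4930481A15Rik, 5730507C01Rik, Ube2u, Zfp951 and Adh6-ps1 had log2 FC from -1.38 to -1.01. For 5730507C01Rik the call was lost with a pseudocount of 1 and in PB-treated mice alone. For Adh6-ps1 it was lost in vehicle-treated mice alone (log2 FC -0.94). Major urinary protein genes went both ways. Mup14 RNA was lower in B6C3F1 (log2 FC -1.69 ± 0.25, call lost in PB-treated mice alone), and Mup9 was the 1 gene that was higher (log2 FC 2.03 ± 0.29, limma FDR = 7.47e-05) although its promoter DHS had a ratio of 0.221 (51.8 ± 21.7 counts in C57BL/6, 11.4 ± 5.50 in B6C3F1). Both belong to a cluster of near-identical genes on chromosome 4, where reads may be assigned to the wrong copy, so their values are uncertain.

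**Figure D3:**
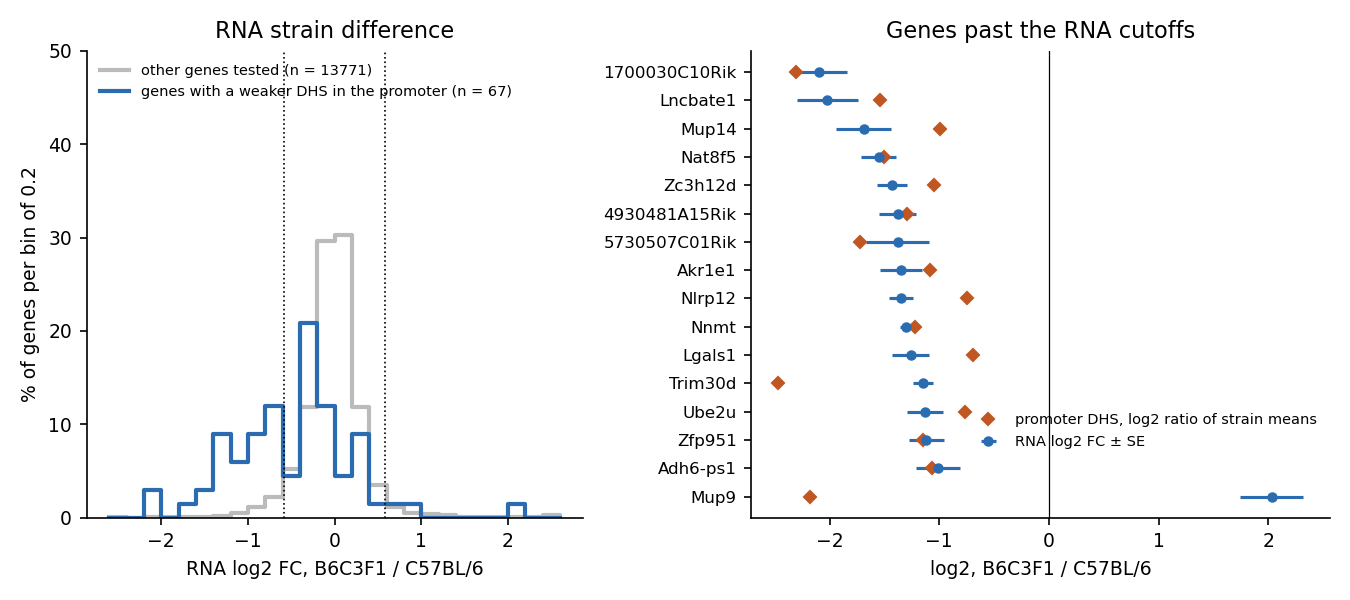
Left, distribution of the RNA log2 FC between B6C3F1 and C57BL/6 for 67 genes with a weaker DHS in the promoter and for the other genes tested (bins of 0.2, end bins hold values beyond the axis, dotted lines at ±0.58). Right, RNA log2 FC with SE and log2 ratio of the strongest weaker promoter DHS for the 15 lower genes of largest change and the 1 higher gene. The blue distribution is shifted to negative values, and Mup9 alone has a positive RNA difference with a negative DHS ratio.

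RNA also went with the number of weaker DHSs for which a gene had the nearest TSS. Of 10856 tested genes in the class with 0 such sites, 2.87% were lower in B6C3F1 and 2.54% higher. Of 913 genes with 1 site, 7.45% were lower and 1.86% higher, of 218 genes with 2 sites 11.9% were lower and 3.21% higher, and of 71 genes with 3 or more sites 11.3% were lower and 0 higher. These classes include promoter genes named above but do not cover all 13838 genes tested, and most genes in each did not pass the RNA cutoffs. Of the genes nearest to 5 or more weaker DHSs and measured in RNA, 1 passed, the cadherin gene Cdh18 (log2 FC -0.594). Dym, with 8 of its 22 DHSs weaker, had a log2 FC of -0.0413, and Tns3, which encodes the adhesion protein tensin-3 and had 6 of 58, had -0.342. Igfbp3, the main carrier of insulin-like growth factors, had 5 of 18 and a log2 FC of -0.535, short of the cutoff.

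Few of the weaker DHSs passed the cutoffs with PB. In B6C3F1, 0 of 2722 passed the cutoffs with PB (limma on log2(normalized count + 1), 9 mice), where 0.169% of all DHSs rose and 0.0214% fell. At an unadjusted p under 0.05 there were 231 (8.49%, against 9.20% of all autosomal DHSs), 107 higher and 124 lower with PB, and the smallest limma FDR was 0.0117. edgeR called 2 (228 up and 46 down over all DHSs) and DESeq2 called 11 (451 up and 166 down over all DHSs). In C57BL/6, 5 of 2722 passed, 2 up and 3 down, where 0.329% of all DHSs rose and 0.0377% fell. At an unadjusted p under 0.05 there were 314 in C57BL/6 (11.5%, against 7.82% of all autosomal DHSs), 148 higher and 166 lower. The rule required the mice of both treatments to stay apart between the strains and so disfavored sites with a large PB response. The median PB log2 FC of the weaker DHSs was -0.022 in B6C3F1 (all autosomal DHSs -0.014) and -0.012 in C57BL/6 (-0.001). The median strain ratio was 0.483 among vehicle-treated and 0.482 among PB-treated mice. When the level in each mouse was expressed relative to the mean of the 9 C57BL/6 mice, the median over weaker DHSs was 0.481, 0.448, 0.489 and 0.50 in vehicle-treated and 0.443, 0.513, 0.481, 0.464 and 0.463 in PB-treated B6C3F1 mice. The treatments overlapped in each strain.

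**Figure D4:**
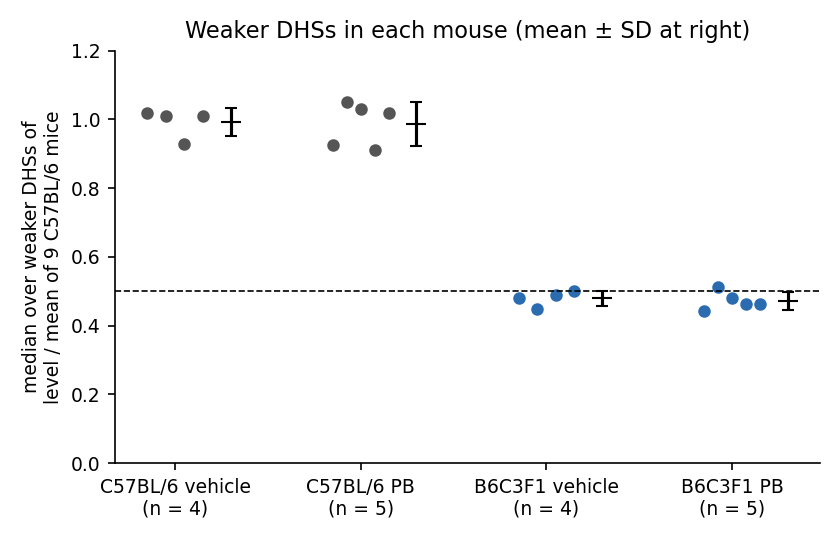
Median over the 2722 weaker DHSs of the level in each mouse divided by the mean of the 9 C57BL/6 mice, by strain and treatment (points are mice, bars give the group mean and SD). C57BL/6 mice lie between 0.910 and 1.05 and B6C3F1 mice between 0.443 and 0.513, and vehicle and PB overlap in both strains.

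The 5 sites that changed with PB in C57BL/6 were distal. At chr12:28509500-28510241, in an intron 38.5 kb from a TSS of the doublecortin-domain gene Dcdc2c, C57BL/6 mice had 388, 461, 345 and 351 counts with vehicle and 217, 241, 203, 249 and 181 with PB. The treatments did not overlap, and the log2 FC was -0.82 ± 0.12 (limma FDR = 4.36e-04). B6C3F1 mice had 114, 116, 84.9 and 142 with vehicle and 164, 105, 136, 141 and 124 with PB, with overlap and a log2 FC of 0.24 ± 0.20 (limma FDR = 0.763). The PB-treated C57BL/6 mice thus came closer to the B6C3F1 level, and the rule kept only sites where they did not reach it. At chr9:39116005-39116347, upstream of the olfactory receptor gene Olfr27, C57BL/6 mice had 121, 122, 133 and 149 with vehicle and 62.5, 49.5, 59.2, 83.5 and 50.6 with PB (log2 FC -1.11 ± 0.18, limma FDR = 8.88e-04). B6C3F1 mice had 25.3, 17.6, 25.8 and 37.9 with vehicle and 10.3, 26, 22.2, 4.97 and 5.31 with PB. The B6C3F1 log2 FC there was as negative, -1.13 ± 0.51, but at these low counts it did not pass (limma FDR = 0.514).

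The third site that fell, chr15:43701307-43701817, 168 kb from a TSS of the autophagy-related gene Tmem74, went from 304 ± 14.7 (n = 4) to 199 ± 19.6 (n = 5) in C57BL/6 (log2 FC -0.61 ± 0.12, limma FDR = 0.00634) and from 105 ± 36.5 to 68.6 ± 11.5 in B6C3F1 (log2 FC -0.55 ± 0.25, limma FDR = 0.510). Sites that rose were chr17:58690208-58690578 near Pdzph1 and chr2:129961571-129961932, 50.6 kb upstream of the transglutaminase gene Tgm3. The Pdzph1 site had 75.8, 67.6, 52.2 and 64.8 counts with vehicle and 97.4, 121, 161, 108 and 159 with PB in C57BL/6 (log2 FC 0.96 ± 0.18, limma FDR = 0.00563), and 46.5, 17.6, 40.6 and 48.7 with vehicle and 14.7, 45.1, 28.5, 20.9 and 30.1 with PB in B6C3F1 (log2 FC -0.44 ± 0.38, limma FDR = 0.779). The Tgm3 site went from 41.4 ± 8.32 to 95.8 ± 28.1 in C57BL/6 (log2 FC 1.15 ± 0.23, limma FDR = 0.00981) and from 15.7 ± 7.14 to 24.2 ± 8.88 in B6C3F1 (log2 FC 0.63 ± 0.44). The calls of the Tmem74, Pdzph1 and Tgm3 sites were lost when single mice were left out, whereas the Dcdc2c and Olfr27 sites kept theirs in each such fit. With all 18 mice in the fit the Olfr27 site lost its call as well (log2 FC -1.11, limma FDR = 0.452), and the Dcdc2c site alone kept it. The PB response was not shown to differ between strains at any weaker DHS. The interaction of strain and PB called 0 sites in all alternatives run (0% of all DHSs in the main comparison). By limma, 159 sites had p under 0.05 before adjustment (5.84%, against 5.42% of all autosomal DHSs). The Dcdc2c site, with a log2 FC 1.06 higher in B6C3F1, had the lowest limma FDR (0.674). In simulated data the interaction recovered 6 of 100 changes of 1 on the log2 scale, so 0 calls do not show equal responses.

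**Figure D5:**
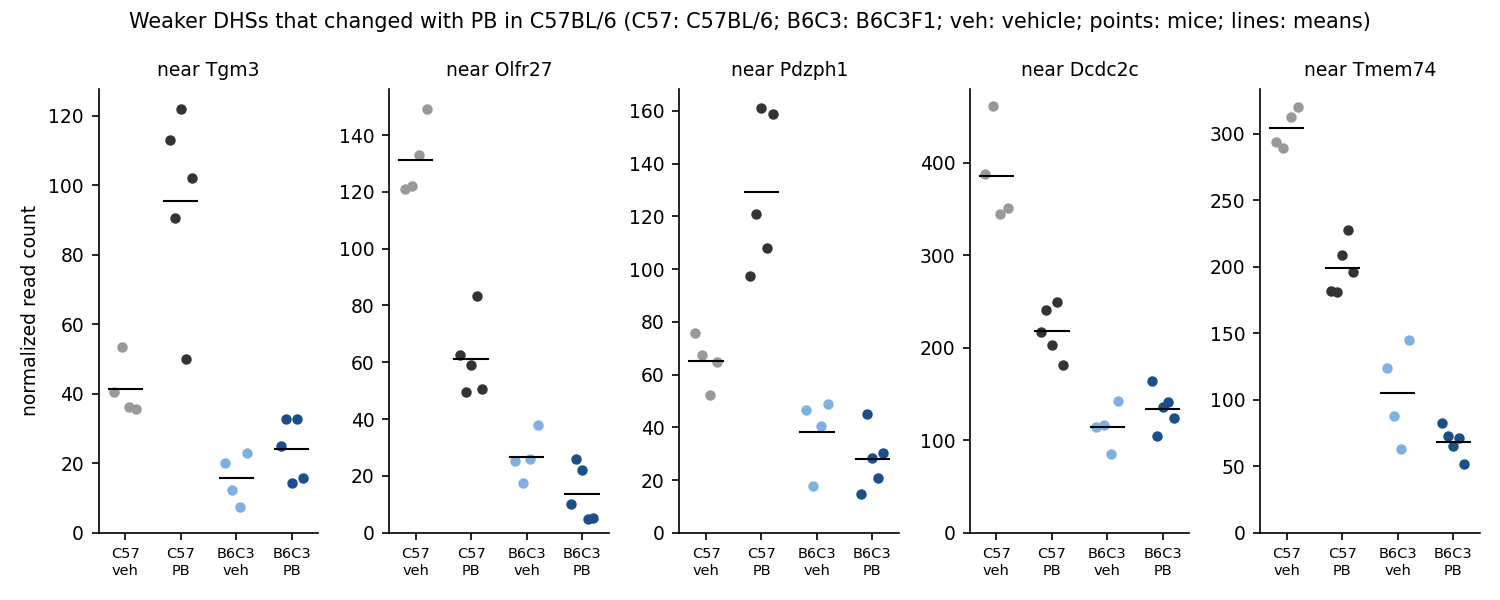
Normalized read count of the 5 weaker DHSs that passed the cutoffs with PB in C57BL/6, by strain and treatment (points are mice, lines are group means). Vehicle and PB points separate in C57BL/6 except at the Tgm3 site. B6C3F1 points lie below them in each panel, which the rule required.

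The PB cutoffs were also applied to RNA of the genes with a weaker DHS in the promoter. None of the 29 lower genes passed the PB cutoffs in either strain (limma, all genes: 2.00% in B6C3F1 and 0.874% in C57BL/6). Of the 67 tested, 3 rose in B6C3F1 (Cyp2g1, H2-K2 and Mup9) and 2 in C57BL/6 (Gsta1 and Mup9), and 0 fell in either strain. These shares were not below those of all genes, and the counts are small. Gsta1 encodes an alpha-class glutathione S-transferase. Its promoter DHS, chr9:78229630-78230396, had 748, 736, 612 and 708 counts with vehicle and 677, 829, 770.1, 575 and 736 with PB in C57BL/6, and 146, 235, 218 and 199 with vehicle and 261, 227, 259, 241 and 243 with PB in B6C3F1 (ratio 0.317). The log2 FC with PB of this site was 0.03 ± 0.10 in C57BL/6 and 0.32 ± 0.16 in B6C3F1, neither past the cutoffs. Gsta1 RNA went from 1.32 ± 0.386 CPM to 10.5 ± 2.37 CPM in C57BL/6 (log2 FC 2.91 ± 0.45, limma FDR = 0.00113) and from 1.60 ± 0.587 CPM to 6.30 ± 3.80 CPM in B6C3F1 (log2 FC 1.69 ± 0.45, limma FDR = 0.0267), and its strain difference did not pass (log2 FC -0.38 ± 0.32). The second weaker DHS near Gsta1, 7.32 kb upstream, had a ratio of 0.505.

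Weaker DHSs were no more frequent near drug metabolism genes than elsewhere. Of 357 DHSs nearest to 47 CAR and PXR targets and carriers, 6 (1.68%) were weaker and 4 stronger. Beside the Gsta1 sites these lay near Cyp2a5 (ratio 0.442), Aldh1a1 (0.502), Cyp1a1 (0.464) and Gsta2 (0.208), and 0 of the 6 passed the cutoffs with PB. Cyp2a5, the coumarin hydroxylase gene, was lower in B6C3F1 RNA (log2 FC -0.68 ± 0.12, limma FDR = 3.27e-04), and of the 47 genes 3 were lower and 2 higher. Shares were 2.03% (9 of 444 DHSs) for bile acid, cholesterol and lipid genes, with 0 genes lower and 3 higher in RNA, and 0.791% (2 of 253) for acute phase and complement genes, with 1 lower and 2 higher. They were 1.82% (12 of 659) for liver transcription factors, with 1 lower (Tox) and 1 higher (Foxa3), and 2.19% (4 of 183) for imprinted and growth genes, with 0 lower and 1 higher (Afp). Each share of weaker DHSs lay below the 2.83% of all autosomal DHSs. Of all genes tested in RNA, 3.55% were lower and 2.57% higher, and the RNA counts per list are too small to set against these. Among the transcription factor genes, Zhx2, a repressor of fetal liver genes, Klf9 and Thrb, the thyroid hormone receptor beta gene, had 2 weaker DHSs each.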

How the data were processed

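DNase-seq and RNA-seq of 18 male mouse livers were analysed from the deposited tables. Per the labels and methods, the authors trimmed DNase reads with cutadapt 1.8, aligned them to mm10 with Bowtie2 2.1.0, removed duplicates, called peaks per sample with MACS2 2.1.1.20160309 and built the consensus set with DiffBind 1.16.3. Both strains were aligned to mm10, the C57BL/6J reference. The authors also mapped the B6C3F1 DNase samples to an imputed C3H/HeJ genome. They reported few read pairs found in only 1 of the alignments and kept mm10. The deposited DNase signal is a normalized read count per DHS, and the deposited RNA signal (CPM) was made by the authors with STAR 2.4.0f1 and edgeR 3.12.1. Dividing by the value of 1 read returned whole reads for 100% of the values of either assay (tolerance 0.01), from 7011739 to 58079490 DNase reads and from 23766046 to 30307693 RNA reads per mouse.

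The members and lists were chosen with earlier results of these data known. Groups follow the labels (4 vehicle-treated and 5 PB-treated mice per strain). PB was tested within each strain, and its difference between strains in all 18 mice, with limma 3.58.1 (R 4.3.3) on log2(normalized count + 1), with trend and robust moderation, over all DHSs. RNA was tested on log2(CPM + 0.1). Calls needed an FDR of at most 0.01 and a log2 FC of at least 0.58 in size. The scripts were tested on simulated data. Annotation and sequence came from RefSeq GRCm38.p6 (31646 TSSs). DHSs were named by lowest ratio (6), highest count (6, of which 1 is not reported here), closeness to the limit (2 on each side), PB calls (up to 8 per strain) and nearest drug metabolism genes (up to 10), and genes by RNA calls (up to 15 lower and 10 higher). Sites named for runs, windows or list membership, the RNA classes by number of nearest sites, and Dym, Tns3, Igfbp3 and Cdh18 were chosen after their values were seen. Alternatives were other scalings, filters, pseudocounts, thresholds, mice and tools (edgeR 4.0.16 and DESeq2 1.42.0 on the recovered reads, where edgeR called 2 and 6 weaker DHSs with PB in B6C3F1 and C57BL/6 and 28 lower promoter genes).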

Additional observations from a re-analysis of the deposited data

Results flagged for a closer look

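A mouse stood apart from the others of its group in 7 of 132 groups examined by Dixon's criterion, where chance gives about 1 in 20. In vehicle-treated C57BL/6 mice the median relative level of the weaker DHSs was 0.930 in the third mouse and 1.01–1.02 in the others. At the DHS near Skint10 (chr4:112941874-112942161) the second PB-treated B6C3F1 mouse had 4.10 counts against 1.47–1.99, and at the DHS near Mir7094-1 the same mouse had 4.10 against 0.994–1.77, differences of 2 reads or fewer. At the DHS near Acot11 the third vehicle-treated B6C3F1 mouse, the library of lowest depth, had 789.7 counts against 855–867. In RNA, 1700030C10Rik was at 0.396 CPM in the fifth PB-treated B6C3F1 mouse against 0.104–0.150 and at 1.37 CPM in the first PB-treated C57BL/6 mouse against 0.936–1.04. Mup14 was at 71.2 CPM in the third vehicle-treated B6C3F1 mouse against 194–219. None of these values made the strains overlap.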

How the results depend on the processing

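Other scalings, a GC correction or a minimum mean count of 50 left 2149 to 2851 weaker DHSs. The rule held for more sites in fewer mice: 7381 with the vehicle-treated mice only (median ratio 0.525) and 5953 with the PB-treated mice only, and leaving out single mice gave 2776 to 3347 sites with a median ratio of 0.480 to 0.489. Leaving out the third vehicle-treated B6C3F1 mouse, the shallowest library, gave the highest number. Of the 6 lowest ratios, that at Skint10 (0.0283) was 0.0501 and that at Mir6546 (0.0465) was 0.0478, then the lowest, after quantile normalization, and that at Mir6546 was 0.00316, again the lowest, with GC-centred values.

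For PB in B6C3F1 the count of 0 became 2 with a pseudocount of 10, 2 with edgeR, 8 at an FDR of 0.05, 11 with DESeq2, 23 with all 18 mice in the fit and 0 to 3 when single mice were left out (1 without the third vehicle-treated mouse, 2 without the second PB-treated mouse, 3 without the fifth). Over all 98170 DHSs the main comparison called 166 up and 21 down. These numbers were 199 and 35 with a pseudocount of 10 and 228 and 46 with edgeR. They were 372 and 124 at an FDR of 0.05, 451 and 166 with DESeq2 and 462 and 168 with all 18 mice. In C57BL/6 the count of 5 became 1 with all 18 mice in the fit, 3 with quantile normalization, 10 at an FDR of 0.05, 11 with DESeq2 and 2 to 7 when single mice were left out (2 without the second or the third vehicle-treated mouse or the second or the fifth PB-treated mouse, 3 without the first or the fourth vehicle-treated or the first PB-treated mouse). Over all DHSs the main comparison in C57BL/6 called 323 up and 37 down. These numbers were 149 and 7 with all 18 mice and 299 and 37 with quantile normalization. At an FDR of 0.05 they were 504 and 89, and with DESeq2 532 and 94. Choosing sites on the vehicle-treated mice alone, an alternative added after seeing the data, gave 41 calls in B6C3F1 and 52 in C57BL/6. Of these 7381 sites, 40 rose and 1 fell (0.555% called) in B6C3F1, and 40 rose and 12 fell (0.705%) in C57BL/6. Over all DHSs, 0.169% rose and 0.0214% fell in B6C3F1, and 0.329% rose and 0.0377% fell in C57BL/6. The vehicle values that chose the sites also entered the PB comparison, so the higher shares carry no test. The interaction called 0 under every alternative run. Lower promoter genes numbered 21 to 30 under the alternatives and 25 to 28 when single samples were left out. Higher genes numbered 0 with 500 bp on each side of a TSS, 3 at an FDR of 0.05, 2 with DESeq2 and 1 to 2 when single samples were left out. Causes were not tested.

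No paired analysis was possible because the groups compared hold different mice with different animal numbers. At these depths a change of 1 on the log2 scale with PB was recovered for 33 of 100 changed DHSs in B6C3F1 and 45 of 100 in C57BL/6 among 98170 simulated, and a change of 2 for 98 and 99 of 100. For the interaction of strain and PB, a change of 1 was recovered for 6 of 100 and a change of 2 for 87 of 100. The changed DHSs were drawn from the whole set above a minimum read count. The same relative spread between mice was simulated at every DHS, so recovery at the weaker DHSs themselves was not measured.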

Other observations

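Promoter DHS and RNA were also compared across the 9 mice of each strain for the 30 genes past the RNA cutoffs, a comparison chosen after the Akr1e1 values were seen. The correlation of log2 values was positive for 21 of 30 genes in B6C3F1 (median Pearson r 0.14) and for 25 of 30 in C57BL/6 (median 0.34). Of these 60 relations, 1 passed an adjusted p of 0.05: 4930481A15Rik in C57BL/6 (r = 0.92, exact permutation p = 7.25e-04, adjusted p = 0.0435, rho = 0.87, exact permutation p = 0.00451), and r was 0.89 without the 2 mice farthest from the median DHS level and 0.91 within treatments. Akr1e1 in B6C3F1 came next (r = 0.89, exact permutation p = 0.00211, adjusted p = 0.0633, rho = 0.82, exact permutation p = 0.0108), with r = 0.66 without the 2 farthest mice and 0.90 within treatments. The B6C3F1 mice of lowest Akr1e1 RNA (8.17 and 11.9 CPM) had DHS counts of 189 and 183, and those of highest RNA (24.6 and 24.5 CPM) had 349 and 381. For Lgals1 in C57BL/6, r was 0.79 over the 9 mice (exact permutation p = 0.0127, adjusted p = 0.191) and 0.16 within treatments.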
